A study of Homo sapiens with 6 samples.

Results

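The comparison described here set MDA-MB-231 cells carrying the short hairpin RNA shS100A10_5, directed against S100A10, beside the same cells carrying a control hairpin, shNCT. MDA-MB-231 is an established human breast cancer line of basal, triple-negative type, and the hairpins were delivered by lentivirus with puromycin present in the growth medium. The 4 arrays whose titles name these hairpins, of 6 in the series, were compared across the 15674 probe sets with a gene symbol, of 16965 in all, with 2 arrays in each group. The other 2 arrays, with the second hairpin shS100A10_1, served here only in the shared estimate of the spread. Total RNA had been hybridised to whole-transcript arrays. The labels call the analyses duplicates without saying whether cultures were separate. The p-values therefore cover only the spread between arrays of this series, possibly a technical one, and the number of arrays limits the precision.

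S100A10, also called p11, belongs to the S100 proteins and forms a tetramer with annexin A2 at the plasma membrane, where the complex binds plasminogen and its activators. In breast cancer cells it is known for the generation of plasmin at the cell surface and for invasion. A short hairpin RNA is cut by the cell into a small interfering RNA, which guides an Argonaute protein to the messenger RNA of the target.

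Values are the deposited intensities on a linear scale, given in the order replicate 1 and replicate 2 of a group. A change is the mean log2 intensity of the hairpin arrays minus that of the control arrays, with the standard error (SE) from limma's fit. A gene is said to have risen or fallen where limma's 2-sided p was under 0.05 after Benjamini-Hochberg adjustment over the 16965 probe sets. Gene lists and families are described by counts and medians, without a test of the list. Where no member of a list passed, this does not show that its members were unchanged.

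Of the 15674 probe sets with a symbol, 231 rose (1.47%) and 281 fell (1.79%). Among those that rose 125 changed by 2-fold or more, and 128 among those that fell. Both hairpin arrays lay above both control arrays for 26.8% of the probe sets and below both for 24%. Hairpin replicate 1 alone lay above both controls for 38.8% and below both for 36.9%, and replicate 2 alone for 43.2% and 36.8%. At p under 0.05 before adjustment in limma's fit, 1701 of the 15674 probe sets were higher and 1628 lower. These counts and shares over all probe sets are the background for the lists below. The median change over all 15674 was 0.02, from 0.01 in replicate 1 and 0.03 in replicate 2.

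The hairpin arrays differed in how far they stood from the controls. Along the first principal component, which held 45.2% of the variance in log2 intensity, replicate 1 of shS100A10_5 had a score of 18.7 and replicate 2 a score of 41.0, and the other 4 arrays lay between -18.2 and -10.1. Replicate differences had an SD of 0.360 (log2) for shS100A10_5 and 0.287 for shNCT, and median intensity ran from 232 to 238 over the 6 arrays. Replicate 2 showed the larger change for 171 of the 231 genes that rose (74.0%), for 219 of the 281 that fell (77.9%), and for 61.8% of all probe sets with a symbol. The genes that rose had median changes of 0.90 in replicate 1 and 1.13 in replicate 2, and those that fell -0.86 and -1.11. An array's deviation from the mean of the 6 arrays also moved with the span of the gene on the chromosome. Spearman's rank correlation across the 15674 genes, which share the arrays and are given no p, was 0.035 for replicate 1, 0.247 for replicate 2 and between -0.207 and -0.007 for the 4 other arrays. The genes that rose had a median span of 33520 bases and those that fell 11069 bases, against 26622.5 over all. The fit with the trend on span removed covered only the 15674 probe sets with a symbol. In it 210 rose and 273 fell, where 231 and 281 of them had done so before with adjustment over all 16965. Of those 512 calls 437 were kept. Without removal of the trend, a fit of 1 probe set per gene, 15669 in all, had 259 rises and 323 falls.

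Leaving out 1 array leaves its group with 1 and fewer degrees of freedom, so a call lost in such a fit does not show a smaller change. Each of the 231 genes that rose was at least 0.60 above the control mean in either hairpin array alone, and each of the 281 that fell at least 0.60 below it. Without hairpin replicate 1, 994 of the 16965 probe sets passed the threshold, and 411 of the 539 called in the full fit were among them. Without hairpin replicate 2, 3 passed: S100A10, CMKLR1 and NR1D1. Without the first control array 22 passed, 20 of them with a symbol: S100A10, CMKLR1, NR1D1, ID2, MAP3K13, SLITRK6, CARD16, SNAI1, HES1, AKR1C1, CYP1A1, CYP2S1, RAB17, TCP11L2, QPCTL, HCFC1R1, BTD, WDR54, ALDH16A1 and MS4A13. Without the second control array 12 passed: S100A10, CMKLR1, NR1D1, ID2, MAP3K13, SLITRK6, CARD16, QPCTL, AGR2, GBP2, KLRC3 and TCN1. In such fits the remaining array of the group is assumed to vary like the other groups. No called probe set changed sign in any of them. For genes with a symbol the 0.60 above fixed this where a hairpin array was left out, so it adds no support.

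**Figure D1:**
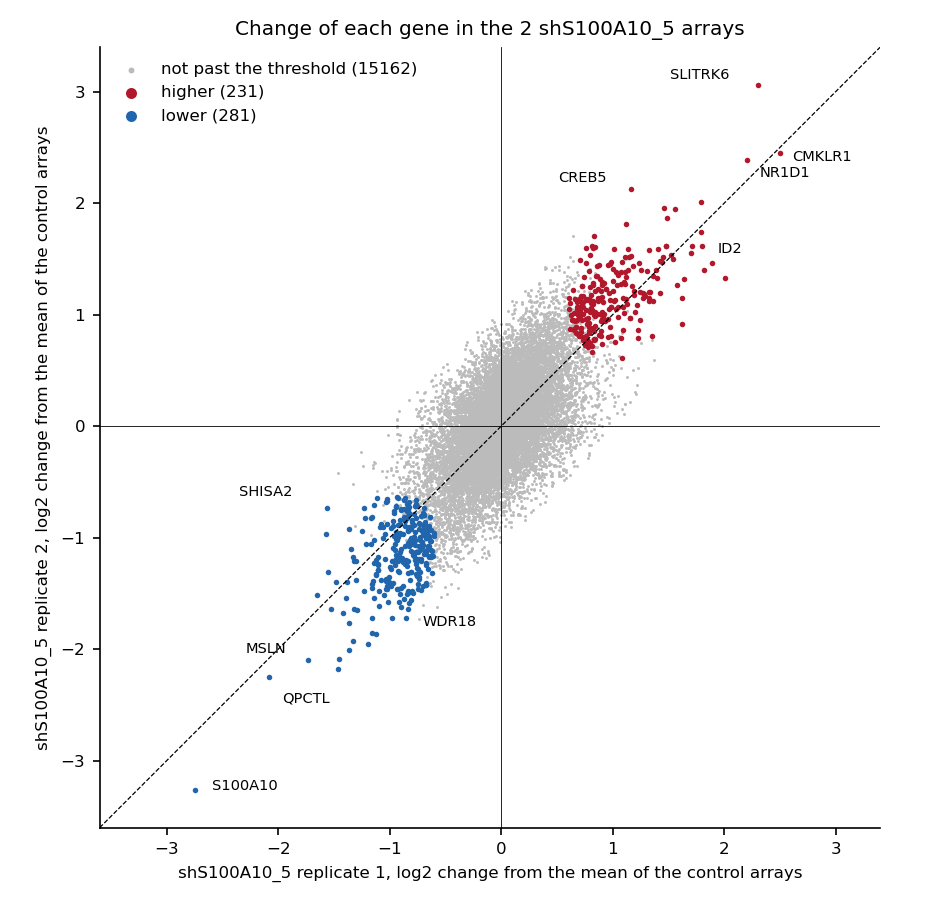
The log2 change of each probe set from the control mean in hairpin replicate 1 (horizontal axis) and replicate 2 (vertical axis), with probe sets that rose or fell past limma's threshold coloured and the line of equal change drawn. Among the genes that rose, replicate 2 showed the larger change for 171 of 231, and among those that fell for 219 of 281.

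Markers fixed for the line and for other cell types gave the following levels. The summed intensity of 10 measured markers of MDA-MB-231 and basal breast cells was 221883 and 218831 in the control arrays and 217301 and 226238 in the hairpin arrays, with KRT5 and KRT14 in the lowest 25% of probe sets in all 4. Sums for 12 luminal markers were 75320 and 74096 against 78043 and 64007, with FOXA1, TFF1 and TFF3 in that lowest 25%. For 10 leukocyte markers they were 7014 and 6775 against 6374 and 4976, and for 7 fibroblast markers 1064 and 1022 against 1089 and 1291. For 6 endothelial markers they were 10656 and 10020 against 11637 and 9217. In all 4 arrays 3 of the 10 leukocyte markers (MS4A1, ITGAM and FCGR3A) lay in the lowest 25%. So did 1 of the 7 fibroblast markers (FAP) and 1 of the 6 endothelial markers (PECAM1). Other members could lie there in some of the arrays. The median control level of the fibroblast list was 4.70 (log2), under the 4.98 that bounds the lowest 25%. Gene by gene, the fibroblast list had a median change of 0.47, with 0.52 in replicate 1 and 0.35 in replicate 2. Both hairpin arrays lay above both controls for 4 of its 7 genes, and 0 passed limma's threshold, with 3 higher and 0 lower at p under 0.05 before adjustment. The largest change was that of LUM, lumican, at 28.8 and 21.1 against 36.5 and 64.2. Both control values of LUM lay in the lowest 25%. The part of these markers in the results was not tested.

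The targeted gene was lower in both hairpin arrays. S100A10 measured 88860 and 92938 in the control arrays and 13565 and 9460 in the hairpin arrays. The groups did not overlap, and replicate 2 was the lower of the hairpin pair. The change was -3.00 (SE 0.21; -2.74 in replicate 1 and -3.26 in replicate 2), an 8.02-fold fall with a limma adjusted p of 0.000442, and the call held without each array in turn. Its partner ANXA2 measured 135978 and 150603 against 143648 and 132146, with overlapping groups and a change of -0.05 (SE 0.17, adjusted p = 0.891).

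Among 10 measured genes of the plasminogen system, S100A10 fell and PLAT rose. PLAT, which encodes tissue plasminogen activator, measured 19111 and 17549 against 29585 and 32489. Both hairpin arrays lay above both controls, and the change was 0.76 (SE 0.17, limma adjusted p = 0.043). The call was lost without hairpin replicate 2 and without either control array. Of the other annexins and the other S100 proteins, 0 passed limma's threshold, and at p under 0.05 before adjustment there were 2 annexins and 1 S100 gene, all lower. ANXA6 measured 20508 and 19062 against 15105 and 13870, and S100A13 measured 2308 and 2383 against 2164 and 1282.

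The rise of SLITRK6, a transmembrane protein of neurons and the inner ear, started from a low level. It measured 12.2 and 15.3 in the control arrays and 67.4 and 114 in the hairpin arrays. The change was 2.68 (SE 0.25; 2.30 and 3.06), with an adjusted p of 0.00191. CMKLR1, the receptor for the chemoattractant chemerin, measured 105 and 91.1 against 551 and 533. The hairpin arrays were close to each other and far from the controls, a change of 2.47 (SE 0.17), or 5.56-fold, with an adjusted p of 0.000442. NR1D1, the clock repressor REV-ERBα, measured 288 and 300 against 1356 and 1537. It rose 4.91-fold, by 2.30 (SE 0.17, adjusted p = 0.000442).

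MAP3K13, a kinase upstream of JNK, measured 35.7 and 31.2 against 115 and 134, a change of 1.90 (SE 0.18). CARD16, a decoy for caspase-1, measured 219 and 232 against 731 and 661 and rose by 1.63 (SE 0.17). The small GTPase RAB17, known from epithelial membrane traffic, measured 211 and 176 against 631 and 594, a rise of 1.66 (SE 0.19). In each of these 3 genes the lowest hairpin array lay more than 2-fold above the highest control array, with limma adjusted p-values of 0.00191, 0.00389 and 0.00563. SYT1, a calcium sensor of vesicle release, measured 630 and 690 against 1814 and 2559. CREB5, a transcription factor of the CREB family, measured 383 and 534 against 1015 and 1980 and was among the genes whose hairpin arrays were least alike, with changes of 1.17 and 2.13. AHNAK2, a large scaffold protein, measured 383 and 347 against 1050 and 1054, and its changes in the hairpin arrays were equal to 2 decimals at 1.53.

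Some of the largest rises were in genes with close copies, where the probe sets may share signal and the gene is uncertain. KLRC2 and KLRC3, receptors of natural killer cells, measured 11.5 and 15.6 against 53.8 and 33.6, and 12.8 and 15.3 against 37.1 and 42. Both were low in the controls. Among the 10 leukocyte markers LYZ, lysozyme, was the 1 that rose, from 51 and 49.3 to 129 and 127. The median change of that list was 0.32 in replicate 1 and -0.11 in replicate 2, and 6 of the 10 had a change above 0. Placental alkaline phosphatase, ALPP, measured 228 and 224 against 696 and 503, a rise of 1.39 (SE 0.19). AGR2, a disulfide isomerase of secretory epithelium, measured 34.9 and 46.4 against 110 and 115, and was the 1 luminal marker of 12 that rose. Its call held without the second control array and was lost without the first or without hairpin replicate 2.

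**Figure D2:**
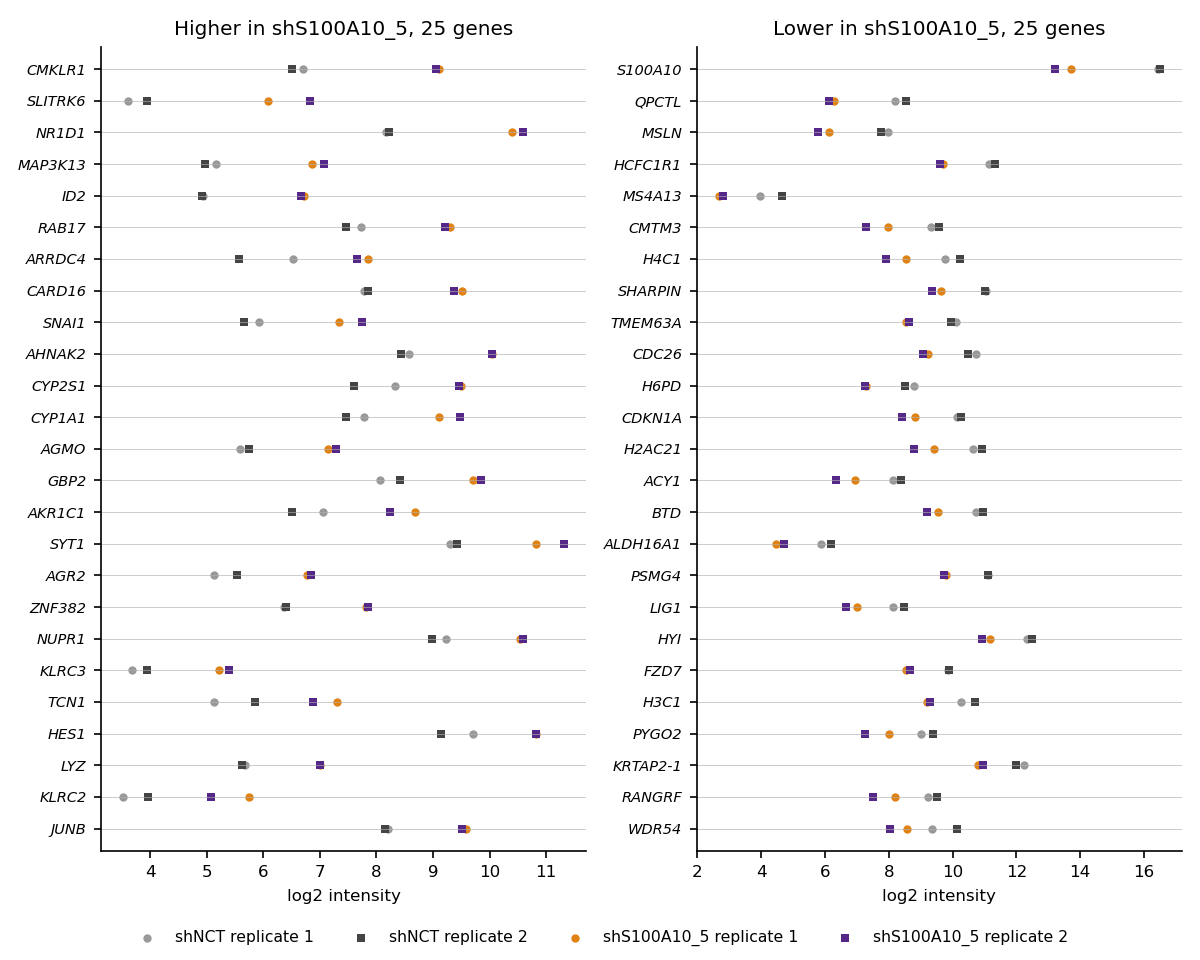
The log2 intensity (horizontal axes) in each of the 4 arrays for the 25 rises and the 25 falls with the largest smaller change of the hairpin arrays, 1 gene a row; grey circles and black squares are replicates 1 and 2 of shNCT, orange circles and violet squares those of shS100A10_5. In every row both hairpin points lie on 1 side of both control points, as the choice of these genes required. S100A10, with a change of -3.00, stands at the brightest level.

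QPCTL had the largest fall after S100A10. It encodes the Golgi glutaminyl cyclase that modifies the amino terminus of CD47 and of chemokines, and it measured 293 and 373 in the control arrays and 78.2 and 69.4 in the hairpin arrays. The change was -2.17 (SE 0.19), a 4.49-fold fall with a limma adjusted p of 0.00154, and the call held without either control array but not without hairpin replicate 2. MSLN, the surface glycoprotein mesothelin, measured 254 and 215 against 70.5 and 54.8. It fell by 1.91 on the log2 scale (SE 0.25), and every hairpin value was under every control value. CMTM3, a protein of the MARVEL family, measured 645 and 755 against 253 and 155, a change of -1.82. Its relative MAL2, which works in apical transport, measured 362 and 293 against 819 and 710 and rose by 1.23.

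HCFC1R1, a regulator of host cell factor C1, measured 2273 and 2564 against 840 and 775, a change of -1.58 (SE 0.17). SHARPIN, a subunit of the linear ubiquitin ligase complex, measured 2142 and 2067 against 789 and 659, a change of -1.54. Their adjusted p in limma's fit was 0.00563 in each case. BTD, the biotin-recycling enzyme biotinidase, measured 1705 and 2006 against 741 and 594. H6PD, which feeds glucose 6-phosphate into the pentose pathway inside the endoplasmic reticulum, measured 446 and 366 against 155 and 154. CDC26, a small subunit of the anaphase-promoting complex, measured 1696 and 1436 against 595 and 537. PSMG4, an assembly chaperone of the proteasome, measured 2194 and 2197 against 891 and 845. The groups did not overlap in any of these 4 genes, and their changes were -1.48, -1.39, -1.47 and -1.34. KRTAP2-1, one of a cluster of near-identical keratin-associated proteins, measured 4834 and 4090 against 1776 and 1969.

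The genes whose hairpin arrays differed most in change, among those past the threshold, were CREB5, ZNF92, UFM1, SNX10, SHISA2 and WDR18. UFM1, the ubiquitin-fold modifier, measured 1741 and 1930 against 3114 and 5546. WDR18, a factor of ribosome assembly, measured 621 and 633 against 347 and 191. In SHISA2, an inhibitor of Wnt and FGF receptor maturation, the order was turned, with 1216 and 1289 against 424 and 752, so that replicate 1 was the lower array. The 6 genes with the most alike arrays were AHNAK2, AKAP9, HES1, MAMDC2, NRM and TMCO6. TMCO6 measured 699 and 728 against 370 in both hairpin arrays.

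Among the genes of DNA replication several fell and none rose. DNA replication starts when the origin recognition complex loads the MCM helicase, which the GINS proteins and CDC45 activate. Polymerases, the sliding clamp and DNA ligase I then copy both strands, and E2F factors drive many of these genes at the entry into S phase. Of 68 genes measured over the lists for licensing, helicase activation, polymerases, the clamp with the lagging strand, and deoxynucleotide supply, 9 fell and 0 rose, with 1 at p under 0.05 before adjustment on the higher side in limma's fit. Both hairpin arrays lay below both controls for 42 of them (61.8%, against 24% of all probe sets with a symbol). The median change was -0.35, with -0.37 in replicate 1 and -0.35 in replicate 2, against 0.02 over all genes. Replicate 1 alone lay below both controls for 54 and replicate 2 for 44. In a cell population, a smaller share of cells in S phase and less RNA per such cell cannot be told apart.

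The E2F site was in a larger share of the promoters of this group than of all promoters. Promoter stretches with the site are shown for 3 genes that fell, MCM6 and LIG1 of the group and E2F1 from outside it. They come from RefSeq on build GRCh38.p14 and run 5′ to 3′ on the strand of the gene. Capitals mark the E2F site, one of TTTCCCGC, TTTGGCGC or TTTCGCGC on either strand, and in MCM6 overlapping matches on both strands form 1 run of capitals. The stretches lie at chr2:135876538-135876645 (minus strand) for MCM6, chr19:48170401-48170508 (minus strand) for LIG1 and chr20:33686386-33686455 (minus strand) for E2F1, all within the 250 bases before the annotated start.
MCM6: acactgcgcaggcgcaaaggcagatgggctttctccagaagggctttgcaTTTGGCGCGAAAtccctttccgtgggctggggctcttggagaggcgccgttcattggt
LIG1: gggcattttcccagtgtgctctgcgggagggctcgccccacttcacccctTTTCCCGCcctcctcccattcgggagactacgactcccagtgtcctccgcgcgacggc
E2F1: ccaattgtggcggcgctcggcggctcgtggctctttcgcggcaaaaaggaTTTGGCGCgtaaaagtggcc

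Such a match was present in 14 of 59 DNA replication genes with a promoter in the table (23.7%), against 2.38% of 27305 promoters in all and 3.29% of the 12728 that belong to measured genes. Of 232 promoters of genes that fell it was in 8.19%, and of 182 of genes that rose in 1.65%. Of the 14 replication genes with a match, MCM6 and LIG1 fell. The others did not pass, with changes from -0.91 (CDT1) to 0.16 (ORC3). A match describes the letters in this window and is not evidence of binding.

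The largest fall in the group was that of LIG1, DNA ligase I, which joins Okazaki fragments. It measured 283 and 359 in the control arrays and 130 and 102 in the hairpin arrays, a change of -1.47 (SE 0.24, limma adjusted p = 0.0145). RNASEH2A and RNASEH2C, the catalytic and a structural subunit of ribonuclease H2, fell together, with RNASEH2C at 2305 and 2576 against 1256 and 1032. RFC2, a subunit of the clamp loader, measured 2443 and 2267 against 1492 and 971. These 4 were the members of 15 in the clamp and lagging strand list that fell, and the changes ran from -1.47 to -0.97. TK1, thymidine kinase of S phase, measured 16609 and 17492 against 9415 and 7410, a change of -1.03, and DTYMK, the next enzyme toward dTTP, measured 452 and 386 against 203 and 183, a change of -1.12. MCM6 measured 853 and 956 against 560 and 519, a change of -0.74, and of the other 5 helicase subunits MCM2, MCM3, MCM5 and MCM7 had changes from -0.86 to -0.65 that did not pass, with MCM4 at 0.04. GINS1 measured 3893 and 3688 against 1748 and 2432, so that replicate 1 was the lower array here. PRIM1, the catalytic subunit of primase, measured 1675 and 1880 against 1002 and 1034, and the other 11 polymerase genes did not pass.

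Of the 9 calls, those of LIG1, RNASEH2A, RNASEH2C, RFC2, TK1 and DTYMK held without hairpin replicate 1, when 15 of the 68 genes fell, and MCM6, GINS1 and PRIM1 were lost. Without hairpin replicate 2 or either control array, 0 of the 68 passed, while the median was -0.37 without that replicate and -0.35 and -0.34 without the first and the second control array. With the trend on gene span removed the median stayed at -0.35.

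E2F1, the activator named above, measured 2019 and 2199 against 984 and 691, a change of -1.35 (SE 0.20, limma adjusted p = 0.0107), and was the 1 gene of 13 E2F and RB family members that fell. CDKN1A, which encodes the cyclin-dependent kinase inhibitor p21 and is a target of p53, measured 1130 and 1218 against 456 and 345. Its change was -1.57 (SE 0.21), a 2.96-fold fall with an adjusted p of 0.00902, the 1 call among 6 inhibitors. Among 19 other targets of p53, 0 passed limma's threshold and the median change was 0.04, with 3 higher and 2 lower at p under 0.05 before adjustment. MDM2 measured 1131 and 814 against 1324 and 2064, and SESN1 131 and 103 against 67.2 and 67.3. Of 11 cyclins and kinases of G1 and S phase 0 passed, with 2 higher and 3 lower at p under 0.05 before adjustment. CCNE1 measured 521 and 575 against 352 and 355, and CDK4 16470 and 15787 against 12295 and 9583. The calls of E2F1 and CDKN1A held without hairpin replicate 1 and were lost without replicate 2 or either control array.

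Mitosis had a smaller median change. Of 73 genes measured, 4 fell and 0 rose, and the median was -0.14, with -0.18 in replicate 1 and -0.09 in replicate 2. Both hairpin arrays lay below both controls for 33 (45.2%, against 24% of all probe sets with a symbol). UBE2C, the ubiquitin-conjugating enzyme of the anaphase-promoting complex, measured 7501 and 8203 against 4754 and 4498, a change of -0.76. Of the kinetochore genes SPC24, in the NDC80 complex, measured 6196 and 5942 against 3294 and 2618. CENPM measured 1072 and 1415 against 629 and 533, and CENPI 4763 and 5117 against 2723 and 3156. The calls of SPC24 and CENPM held without hairpin replicate 1, and 0 of the 4 held without replicate 2 or either control array. Of 18 cohesin and condensin genes and 22 genes of the spindle 0 passed limma's threshold, with 2 and 1 higher and 3 and 4 lower at p under 0.05 before adjustment. Of 17 genes of mismatch and base excision repair 0 passed, with 6 lower and 0 higher before adjustment, a median of -0.31 and MSH6 at 4403 and 4726 against 3077 and 2952.

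Core histones, which package newly copied DNA, are made from gene clusters whose messages end in a stem loop. Members of a histone type are nearly identical in sequence, so the probe sets may share signal and single genes are uncertain. Of 48 clustered core histone genes 9 fell and 1 rose, where 1.79% and 1.47% of all probe sets with a symbol did so. Both hairpin arrays lay below both controls for 37 (77.1%, against 24%). The median change was -0.48, from -0.36 in replicate 1 and -0.61 in replicate 2. By type, 5 of 11 H2A genes fell, 2 of 17 H2B genes fell and 1 rose, 1 of 10 H3 genes fell and 1 of 10 H4 genes fell, with medians of -0.53, -0.39, -0.55 and -0.40. Each of the 10 H3 genes was below both controls in both hairpin arrays.

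Stretches of 2 histone promoters are shown because the CCAAT box, CCAAT or ATTGG on the other strand, was in 38 of 44 core histone promoters (86.4%), against 33.0% of all promoters. It is in capitals. The E2F site was in 9 of the 44 (20.5%). The stretches, from RefSeq on GRCh38.p14, lie at chr1:149888085-149888189 (minus strand) and chr6:26020308-26020412 (plus strand).
H2AC21: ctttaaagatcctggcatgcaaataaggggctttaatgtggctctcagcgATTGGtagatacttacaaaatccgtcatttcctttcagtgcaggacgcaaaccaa
H3C1: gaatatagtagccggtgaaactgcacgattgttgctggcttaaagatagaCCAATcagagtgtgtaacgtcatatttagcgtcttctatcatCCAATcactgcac

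H2AC21 measured 1586 and 1956 in the control arrays and 686 and 440 in the hairpin arrays, a change of -1.68 (SE 0.24, limma adjusted p = 0.00968). H4C1 measured 876 and 1206 against 374 and 243, a change of -1.77 (SE 0.26, adjusted p = 0.0107). The bright H2AC11 measured 47763 and 52701 against 27298 and 18580, and H2BC14 27193 and 28758 against 15857 and 13745. In these genes replicate 2 was the lower array and the groups did not overlap. H3C1 measured 1242 and 1683 against 586 and 626. H2BC17 went the other way, from 341 and 442 to 691 and 661, a change of 0.80 (adjusted p = 0.048). Of 8 histone variants from outside these clusters, H2AX, whose phosphorylated form marks DNA breaks, fell from 16473 and 16966 to 10652 and 8424. Of 7 linker histones 0 passed limma's threshold, with 1 lower at p under 0.05 before adjustment, and H1-4 measured 83444 and 81700 against 57152 and 42698. Of 16 histone chaperones and factors of chromatin assembly 0 passed, with 2 higher and 6 lower before adjustment. ASF1B, which hands new histones to the assembly factor, measured 8877 and 9381 against 6618 and 4726.

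Without hairpin replicate 1, 7 core histone genes fell and the calls of H2AC4, H2AC11, H2AC21, H2BC14 and H4C1 were among them. The call of H2BC17 was lost, and 0 core histones passed without replicate 2 or without either control array. Clustered histone genes are short, with median spans of 402 to 499 bases by type, and the median over the 48 genes was -0.44 with the trend on span removed.

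**Figure D3:**
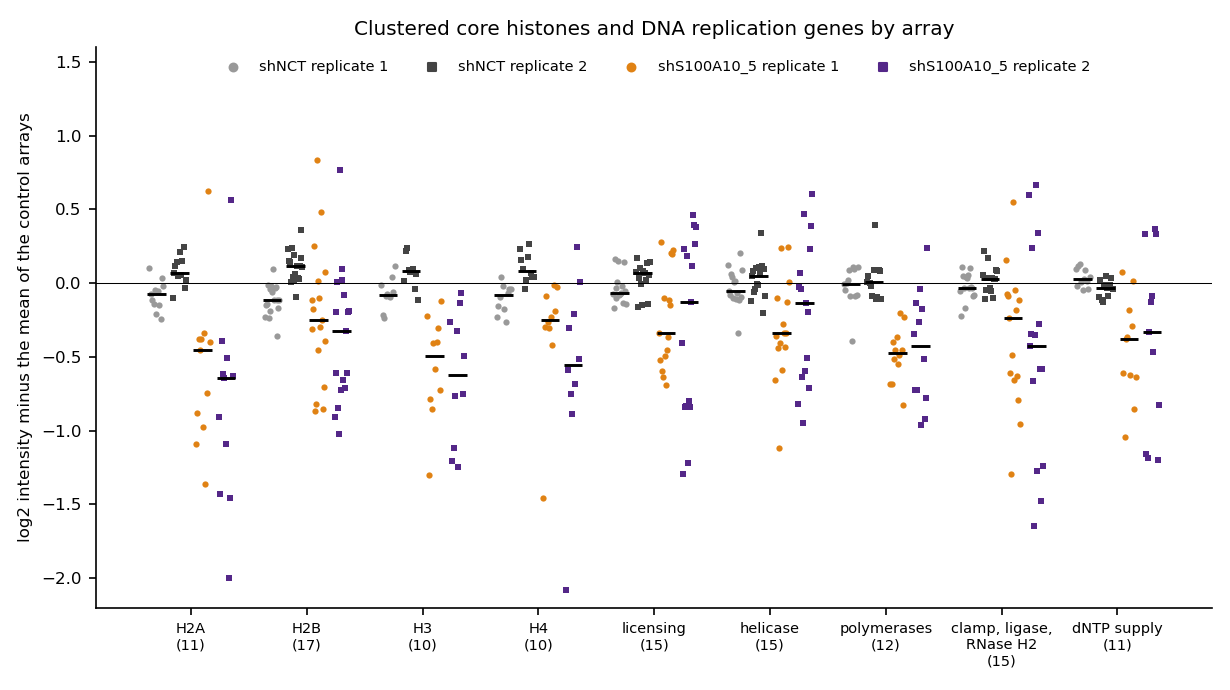
The log2 intensity minus the mean of the control arrays (vertical axis) for each clustered core histone gene and each DNA replication gene, by list with the number of genes in brackets; points are single genes in each of the 4 arrays and black bars are medians. Over the lists of each set the medians were -0.36 and -0.61 in hairpin replicates 1 and 2 for histones and -0.37 and -0.35 for replication.

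Nuclear genes for oxidative phosphorylation encode the subunits of the respiratory chain and the ATP synthase. Of 69 measured, 1 fell and 0 rose, where 1.79% and 1.47% of all probe sets with a symbol did so. The median change was -0.38, and both hairpin arrays lay below both controls for 43 (62.3%, against 24%). The shift was uneven over the arrays, with a median of -0.15 in replicate 1 and -0.59 in replicate 2. Replicate 1 alone was below both controls for 44 genes and replicate 2 for 59. UQCR11, a small subunit of complex III, measured 5038 and 6430 against 3559 and 2425, with changes of -0.68 and -1.23 in the hairpin arrays and an adjusted p in limma's fit of 0.0486. Its call held without replicate 1, when 14 of the 69 fell, and was lost without replicate 2 or either control array. The call of UQCR11 was also lost with the trend on gene span removed, with quantile normalization and with arrays centred on their medians, and in the last 2 of these 0 of the 69 fell.

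Of 32 complex I genes 0 passed, with 12 lower and 2 higher at p under 0.05 before adjustment in limma's fit. NDUFV1, which binds NADH, measured 6552 and 5664 against 3940 and 3339, and NDUFA10 2924 and 2384 against 1678 and 1483. Each of the 10 complex IV genes had a change below 0, with a median of -0.50, and 0 of them passed. COX7A2, the subunit 7a form of most tissues outside muscle, measured 2255 and 2938 against 1758 and 1115. Of 16 ATP synthase genes 0 passed, with 7 lower at p under 0.05 before adjustment, and ATP5PO measured 12589 and 11556 against 8957 and 5863. The genes of this group are short, with median spans from 7642 bases for complex IV to 12268 bases for complex I. The rank correlation of span with deviation from the mean of all arrays was 0.035 in hairpin replicate 1 and 0.247 in replicate 2. In the control arrays it was -0.135 and -0.061. Whether the change from the controls moved with span in only one hairpin array was not tested. With the trend on span removed the median over the 69 genes was -0.37, and -0.29 for complex I.

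Mitochondrial ribosomal proteins, which translate the subunits encoded in the mitochondrion, were also farther below 0 in replicate 2. Of 74 measured 5 fell and 0 rose, where 1.79% and 1.47% of all probe sets with a symbol did so. The median was -0.28, with -0.12 in replicate 1 and -0.40 in replicate 2. Both hairpin arrays lay below both controls for 38 (51.4%, against 24%). MRPL24 measured 2933 and 3011 against 1861 and 1107, with changes of -0.68 and -1.43. MRPS11 measured 3497 and 3109 against 1921 and 1782, with the hairpin arrays close to each other. MRPS16, MRPL4 and MRPS25 fell as well, with changes of -0.78, -0.78 and -0.74. Without hairpin replicate 1 the count was 8, MRPL24, MRPS16 and MRPL4 among them, and it was 0 without replicate 2 or either control array. With the trend on gene span removed 1 of the 74 fell, MRPS25, and the median was -0.21. The median span of these genes was 8605 bases. With quantile normalization 1 fell, MRPS11, and 0 did with arrays centred on their medians. TIMM17B, a channel subunit of the inner membrane translocase, was the 1 of 24 import genes that fell, from 9817 and 9907 to 6501 and 5082. Its call was lost with the span trend removed, with quantile normalization and with centring.

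Of 43 cytosolic ribosomal proteins 0 passed limma's threshold, with 9 lower and 0 higher at p under 0.05 before adjustment. The median was -0.26, from -0.12 in replicate 1 and -0.41 in replicate 2. Both hairpin arrays lay below both controls for 31 (72.1%, against 24% of all probe sets with a symbol). RPL27 measured 6750 and 8299 against 4940 and 3135, and RPS14 8893 and 10482 against 6348 and 4464. With the trend on span removed the median of the 43 was -0.19. Of 27 proteasome genes 0 passed, with 7 lower and 1 higher at p under 0.05 before adjustment, and medians of -0.08 and -0.35 in the hairpin arrays. PSMD2 measured 24192 and 25700 against 17473 and 16230.

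Zinc finger genes, most of which encode repressors with KRAB domains, had a median above 0. Of 450 genes named ZNF 13 rose (2.89%, against 1.47% of all probe sets with a symbol) and 3 fell. Both hairpin arrays lay above both controls for 195 (43.3%, against 26.8%) and below both for 55. The median was 0.17, with 0.12 in replicate 1 and 0.24 in replicate 2, and 320 of the 450 had a change above 0. ZNF382 measured 82.6 and 84.2 against 226 and 232, a change of 1.46 (SE 0.17, limma adjusted p = 0.00626). ZNF614 measured 284 and 222 against 537 and 615. ZNF92 measured 387 and 351 against 656 and 1200, with changes of 0.83 and 1.70 that put it among the least alike pairs. The 3 that fell were ZNF358, ZNF32 and ZNF511, with changes of -1.11, -0.90 and -0.86, ZNF358 from 1186 and 1406 to 686 and 523. Without hairpin replicate 1, 35 rose and 4 fell, and 15 of the 16 calls were kept. The count of rises was 0 without replicate 2 and without either control array. Since many zinc finger genes are near copies in clusters, single genes are uncertain.

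**Figure D4:**
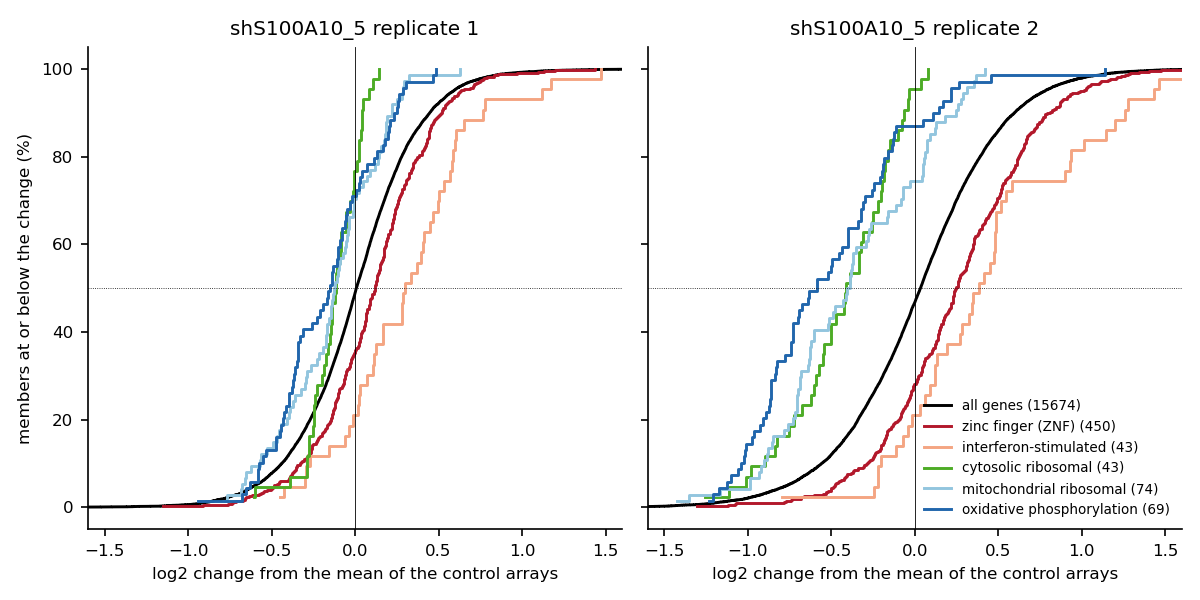
The share of members (vertical axis, %) at or below each log2 change from the control mean (horizontal axis), in hairpin replicate 1 (left) and replicate 2 (right), for all genes and 5 groups with the number of members in brackets. The curve of oxidative phosphorylation genes crosses the dotted line at 50% at -0.15 on the left and -0.59 on the right, and that of zinc finger genes at 0.12 and 0.24.

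Olfactory receptors, sensory receptors of the nose, were centred on 0. Of 186 members 0 passed limma's threshold, with 4 higher and 10 lower at p under 0.05 before adjustment. Changes were above 0 for 92 and below for 94, and the median was -0.01. Of 318 solute carriers 4 rose (1.26%) and 6 fell (1.89%), near the 1.47% and 1.79% of all probe sets with a symbol. Apart from SLC7A11, those that rose were SLC39A6, a zinc importer, from 3212 and 3434 to 5716 and 7312, SLC6A15, a transporter of neutral amino acids, and SLC46A3 of lysosomes. The largest fall was that of the nucleoside transporter SLC29A2, from 201 and 241 to 112 and 67, and the mitochondrial dicarboxylate carrier SLC25A10 fell from 1387 and 1555 to 682 and 621. In these genes the groups did not overlap. Without hairpin replicate 1, 7 of the 10 calls held, and 0 did without replicate 2 or either control array.

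The 2 RAB genes of 58 that rose were RAB17, described above, and RAB31, a regulator of traffic from the trans-Golgi, at 1140 and 1215 against 2913 and 3091. Of 40 cytochrome P450 genes 2 rose, both in classes that handle foreign compounds. CYP1A1 measured 220 and 175 against 551 and 715, a change of 1.68 (SE 0.21, limma adjusted p = 0.00846), and CYP2S1 measured 320 and 194 against 722 and 704, a change of 1.52. Both calls held without the first control array and were lost without the second or without hairpin replicate 2. ALDH16A1 was the 1 of 18 aldehyde dehydrogenases that fell, from 58.6 and 72.4 to 22.2 and 26.3.

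Single calls came from several other families. The protocadherin PCDHB16, one of a cluster of close copies, rose from 82.1 and 116 to 212 and 247, the 1 call of 46 cadherins and protocadherins. FBXO32, the muscle ubiquitin ligase subunit atrogin-1, measured 217 and 184 against 467 and 364, the phosphatase DUSP19 26.2 and 29.6 against 48 and 51.7, and the G protein subunit GNB5 806 and 987 against 501 and 530. The first pair of these rose and GNB5 fell, with both hairpin arrays on 1 side of both controls. Of 48 translation initiation factors EIF2B2, a subunit of the exchange factor for eIF2, fell from 12203 and 11670 to 7726 and 6257, and EIF3K fell too. The calls of PCDHB16, DUSP19, EIF2B2 and EIF3K held without hairpin replicate 1, those of FBXO32 and GNB5 did not, and all 6 were lost without replicate 2 or either control array.

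Of 45 keratins, 44 ubiquitin-specific proteases and 58 tripartite motif genes 0 passed limma's threshold, with 1, 6 and 5 higher and 3, 2 and 2 lower at p under 0.05 before adjustment. The keratin of simple epithelium KRT19 measured 12756 and 14043 against 9081 and 6380, and USP47 measured 5262 and 5270 against 7767 and 11042. Of 30 chemokines, 25 serpins, 30 ADAM proteases and 48 DEAD-box helicases 0 passed as well, with 3, 1, 4 and 3 higher and 0, 2, 2 and 5 lower at p under 0.05 before adjustment in limma's fit. CCL20, a chemokine for CCR6, measured 8.43 and 11.8 against 18.9 and 19.7, a level in the lowest 25% of probe sets. ADAM17, which sheds TNF, measured 1450 and 1384 against 1948 and 2293. Of the transcription factors with a homeobox of the HOX clusters (17 genes), a forkhead (38) or a SOX domain (16), 0 passed, with 0, 2 and 0 higher and 0, 0 and 3 lower before adjustment. SOX4 measured 342 and 312 against 251 and 205.

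In glucose metabolism enzymes were among the genes that fell and glucose-responsive arrestins among those that rose. Of 21 glycolysis genes 1 fell and 20 had a change below 0, with a median of -0.22. PFKL, the liver form of phosphofructokinase, measured 1764 and 1543 against 993 and 638, a change of -1.05 (limma adjusted p = 0.036). PGLS, which hydrolyses 6-phosphogluconolactone in the pentose phosphate pathway, measured 2612 and 3971 against 1457 and 1106, a change of -1.34. Of 8 genes in the list of arrestins and targets of ChREBP and MondoA 3 rose. ARRDC4, an arrestin-domain protein that lowers glucose uptake, measured 91.8 and 47.7 against 231 and 203, a change of 1.71 (SE 0.35, adjusted p = 0.0338). Its control arrays were far apart. ARRDC3 measured 689 and 719 against 1144 and 1475, and KLF10, a zinc finger factor of TGF-beta and glucose signalling, 2320 and 2413 against 4551 and 5561. All but ARRDC4 held without hairpin replicate 1, and none of these 5 held without replicate 2 or either control array. Of 17 targets of hypoxia-inducible factor 1 rose, NDRG1, from 121 and 116 to 234 and 208. Of 20 genes of the tricarboxylic acid cycle 0 passed limma's threshold, with 4 lower at p under 0.05 before adjustment, and IDH2 measured 575 and 531 against 431 and 299.

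Several enzymes of lipid synthesis fell. Of 15 genes of fatty acid synthesis FASN, ACSS2 and SLC25A1 fell and 0 rose, with a median of -0.28. FASN, the synthase itself, measured 1826 and 2133 against 1053 and 1075, a change of -0.89. ACSS2, which makes acetyl-CoA from acetate, measured 277 and 351 against 176 and 148, and SLC25A1, the carrier that exports citrate from mitochondria, 660 and 471 against 306 and 237. MVK, mevalonate kinase, was the 1 of 15 cholesterol synthesis genes that fell, from 623 and 806 to 374 and 257, and 11 of the 15 had a change below 0, with a median of -0.47. LPCAT3, which places polyunsaturated chains in membrane phospholipids, measured 918 and 1162 against 551 and 472. These 5 calls held without hairpin replicate 1, and 0 of them without replicate 2 or either control array. The CCAAT box was in 85.7% of 14 cholesterol gene promoters, and the sterol element CACCCCAC in 0 of 14, against 2.37% of all promoters.

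In fatty acid oxidation 1 of 14 genes rose and 1 fell. PPARGC1A, the coactivator of mitochondrial biogenesis, measured 231 and 188 against 431 and 535, a change of 1.20 (SE 0.19, limma adjusted p = 0.0135). CPT2, a carnitine palmitoyltransferase of the inner membrane, measured 452 and 455 against 256 and 274, a change of -0.78. The call of PPARGC1A held without hairpin replicate 1 and that of CPT2 did not, and both were lost without replicate 2 or either control array.

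Genes of the integrated stress response are driven by ATF4 when translation initiation is slowed. Of 23 measured 5 rose and 0 fell, where 1.47% and 1.79% of all probe sets with a symbol did so. Both hairpin arrays lay above both controls for 12 (52.2%, against 26.8%). The median change was 0.14. ATF3, a stress-induced repressor, measured 139 and 121 against 386 and 313, a change of 1.42 (SE 0.19, limma adjusted p = 0.00865). NUPR1, a small chromatin protein of stress, measured 599 and 505 against 1478 and 1536, a change of 1.45 with the same adjusted p. The cytokine GDF15 measured 39.3 and 42.1 against 83.1 and 106, and CHAC1, which breaks down glutathione, 1557 and 1408 against 2305 and 2868. SLC7A11, the cystine transporter, rose from 7020 and 6924 to 14808 and 19352, a change of 1.28 (SE 0.19). ATF4 itself, DDIT3 and ASNS, other members of the list, had changes from -0.07 to 0.16 that did not pass. All 5 calls held without hairpin replicate 1, and none without replicate 2 or either control array. The element TGATGNAA was in 5 of 21 promoters of the list (23.8%), against 3.19% of all.

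Other lists of protein quality and amino acid supply had no member past limma's threshold. They held 21 chaperones of the endoplasmic reticulum (3 higher and 1 lower at p under 0.05 before adjustment), 11 cytosolic heat shock proteins (0 and 0), 16 cytosolic tRNA synthetases (1 and 1), 10 genes of serine and one-carbon synthesis (0 and 1) and 8 genes of metallothioneins and their factor (1 and 0). Their median changes were 0.18, 0.12, -0.01, -0.17 and -0.08. DNAJB9, a chaperone induced by the unfolded protein response, measured 306 and 357 against 492 and 773, with replicate 2 the higher array. WARS1, the tryptophan enzyme, measured 13775 and 14095 against 19486 and 19580.

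Of 23 targets of NRF2, the factor of oxidative stress, SLC7A11, AKR1C1 and ABCC3 rose and 0 fell. AKR1C1, an aldo-keto reductase with near copies in AKR1C2 and AKR1C3, measured 134 and 90.4 against 408 and 303, a change of 1.68 (SE 0.23, limma adjusted p = 0.00931). Its call held without the first control array and was lost without the second or without hairpin replicate 2. AKR1C2 and AKR1C3 had changes of 0.50 and 0.98 that did not pass. ABCC3, an efflux pump, measured 42 and 49.6 against 77.5 and 101. NQO1 and HMOX1 had changes of 0.06 and 0.31 and did not pass. The element TGACNNNGC was in 22.2% of 18 promoters, against 11% of all.

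Immediate early factors split. JUNB rose from 296 and 284 to 763 and 727, a change of 1.36 (SE 0.17, limma adjusted p = 0.00818). EGR1, a zinc finger factor of growth signals, measured 11241 and 11936 against 20114 and 33650, with changes of 0.80 and 1.54 in the hairpin arrays, and FOSB measured 109 and 131 against 207 and 216. JUN fell, from 7193 and 7089 to 4467 and 3845, a change of -0.79. Of the 23 genes in the list the median was 0.17. The calls of JUNB, EGR1 and JUN held without hairpin replicate 1, and 0 of the 4 without replicate 2 or either control array. Of 17 feedback inhibitors of ERK 0 passed limma's threshold, with 4 higher and 1 lower at p under 0.05 before adjustment.

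Of 12 genes in the list of ID proteins and targets of BMP signalling, 2 rose, ID2 and ID3, and the median change was 0.25. ID2, which binds and blocks E proteins, measured 30.4 and 30.2 in the control arrays and 105 and 102 in the hairpin arrays. The arrays of each group were nearly level, and the change was 1.77 (SE 0.17, limma adjusted p = 0.00203), with the call kept without either control array and without hairpin replicate 1. ID3 measured 417 and 542 against 1130 and 919, a change of 1.10, and its call was lost without any 1 of these 4 arrays. HES1, a repressor induced by Notch, measured 838 and 565 against 1803 and 1814. The hairpin arrays were level and the controls spread, a change of 1.39 (SE 0.21, adjusted p = 0.0107). The call held without hairpin replicate 1 and without the first control array, and was lost without hairpin replicate 2 or the second control array. Of 20 genes of the Notch pathway, with HES4, HES6, HES7, HEY1, HEY2 and HEYL among them, HES1 alone passed, and 15 of the 20 had a change above 0.

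SNAI1, the zinc finger repressor of E-cadherin, measured 60.4 and 50.5 against 162 and 213, a change of 1.75 (SE 0.19, limma adjusted p = 0.00563). It stands in the lists of TGF-beta targets and of regulators of the epithelial to mesenchymal transition. LTBP1, which holds latent TGF-beta in the matrix, measured 269 and 360 against 577 and 719, and TCF4, an E protein, 68.8 and 85.7 against 135 and 165. Of 16 transition genes SNAI1 and TCF4 rose and 0 fell. Of 20 genes of epithelial junctions 2 rose as well, JUP, plakoglobin, from 250 and 264 to 572 and 503, and DSG2, desmoglein 2, from 2406 and 1955 to 4058 and 4211. In the Wnt list of 22, RNF43, a ligase that removes Frizzled receptors, rose from 26.5 and 30.2 to 52.3 and 70.6, and FZD7, such a receptor, fell from 930 and 955 to 377 and 407, a change of -1.27 (adjusted p = 0.00902). The call of SNAI1 held without the first control array and was lost without the second or without hairpin replicate 2. The others were lost without either control array or hairpin replicate 2, and those of LTBP1, TCF4, JUP, RNF43 and FZD7 held without replicate 1.

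The circadian clock is a loop in which CLOCK and BMAL1 drive their own repressors through E-boxes. Of 18 clock genes 4 rose and 0 fell, where 1.47% and 1.79% of all probe sets with a symbol did so. Both hairpin arrays lay above both controls for 10 (55.6%, against 26.8%). The medians were 0.40 in replicate 1 and 0.34 in replicate 2. Besides NR1D1, the clock genes that rose were BHLHE41, PER3 and CIART, all repressors of the loop. BHLHE41, or DEC2, measured 193 and 196 against 446 and 450, a change of 1.20 (SE 0.17, limma adjusted p = 0.00968). PER3 measured 546 and 526 against 962 and 921, and CIART 49.9 and 66 against 93.5 and 117, with changes of 0.81 and 0.87. In all 4 genes the hairpin arrays lay near each other and above both controls. The activators CLOCK and BMAL1 had changes of 0.11 and 0.18 and did not pass. The 4 calls held without hairpin replicate 1, and NR1D1 alone without replicate 2 and without either control array.

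The promoter stretches of BHLHE41 and CIART are shown for the E-box CACGTG, in capitals, which was in 4 of 17 clock promoters (23.5%) against 6.49% of all. They lie at chr12:26125038-26125135 (minus strand) and chr1:150282375-150282480 (plus strand) in RefSeq on GRCh38.p14. No match was found for NR1D1 and PER3, the other clock genes that rose. Only 17 of the 18 clock genes had a promoter to search.
BHLHE41: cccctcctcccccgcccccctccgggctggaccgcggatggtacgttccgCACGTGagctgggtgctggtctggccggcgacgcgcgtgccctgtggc
CIART: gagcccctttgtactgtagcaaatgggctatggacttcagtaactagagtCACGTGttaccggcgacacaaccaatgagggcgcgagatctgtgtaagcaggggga

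Interferon-stimulated genes, the antiviral programme of the cell, included genes that rose and none that fell. Of 43 measured 4 rose (9.30%, against 1.47% of all probe sets with a symbol) and 0 fell, and 35 had a change above 0. Both hairpin arrays lay above both controls for 26 (60.5%, against 26.8%). The medians were 0.30 in replicate 1 and 0.38 in replicate 2. GBP2, a guanylate-binding protein, measured 268 and 340 against 838 and 922, a change of 1.54 (SE 0.19, limma adjusted p = 0.00863). XAF1, an antagonist of the inhibitor of apoptosis XIAP, measured 140 and 166 against 344 and 364, a change of 1.22. SAMD9, an antiviral effector, measured 1138 and 1283 against 2052 and 3330, with replicate 2 the higher array. OAS1, which senses double-stranded RNA, measured 36.7 and 35.1 against 78.1 and 79.3. The calls of GBP2, XAF1 and SAMD9 held without hairpin replicate 1, when 8 of the 43 rose. GBP2 alone held without the second control array, and 0 did without replicate 2 or the first control array.

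The interferon-stimulated response element, searched on both strands, was in 20 of 34 promoters of this list (58.8%), against 3.07% of all promoters. Of the 20 carriers SAMD9 alone rose. The others did not pass, with changes from -0.26 (BST2) to 0.89 (IFIH1) and ISG15 at -0.003. The element is shown in capitals for SAMD9 (chr7:93118056-93118165, minus strand, RefSeq on GRCh38.p14).
SAMD9: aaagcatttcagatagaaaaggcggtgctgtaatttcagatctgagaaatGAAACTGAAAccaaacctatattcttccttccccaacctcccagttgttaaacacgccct

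Of 16 genes of MHC class I presentation 0 passed limma's threshold, with 3 higher and 2 lower at p under 0.05 before adjustment. TAPBP measured 4857 and 3698 against 6123 and 7560, and HLA-E 4745 and 5714 against 3444 and 3357. Of 27 targets of NF-kB 2 rose and 0 fell. ICAM1, an adhesion molecule for leukocytes, measured 905 and 851 against 1894 and 2125, and CSF1, the growth factor of macrophages, 9464 and 10016 against 22262 and 22057. Both rose by 1.19 with an adjusted p of 0.00968, held without hairpin replicate 1, and were lost without replicate 2 or either control array. Of 24 receptors for TNF and interleukins 0 passed, with 7 higher and 0 lower at p under 0.05 before adjustment in limma's fit. Both hairpin arrays lay above both controls for 15 of them (62.5%, against 26.8% of all probe sets with a symbol) and the median was 0.35. IFNAR2 measured 1934 and 1502 against 2789 and 3058.

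**Figure D5:**
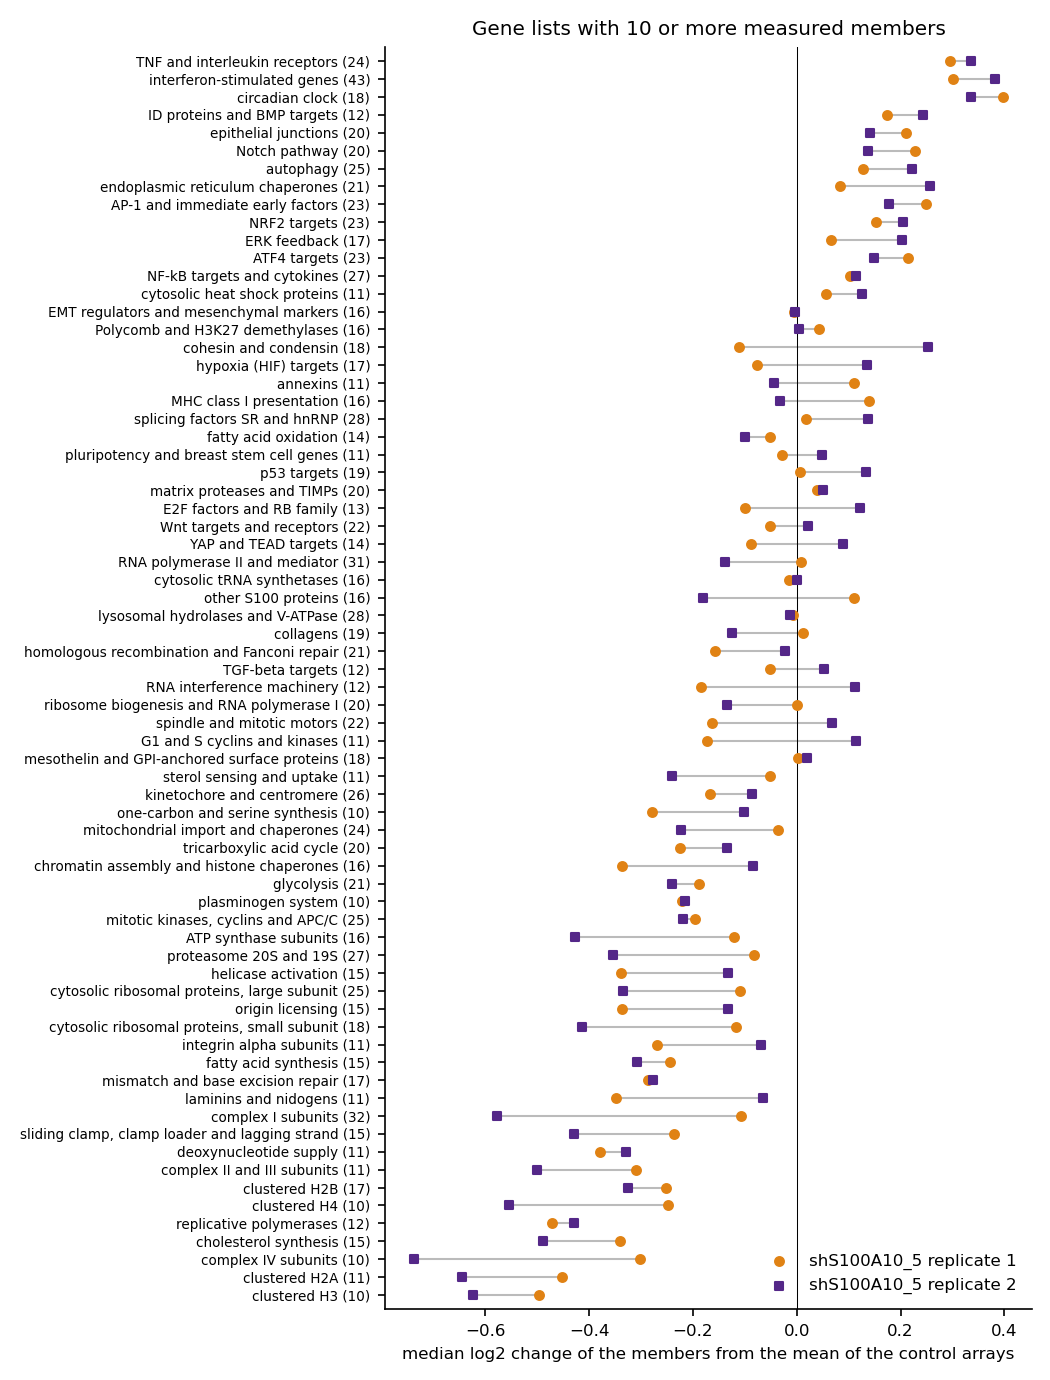
The median log2 change from the control mean (horizontal axis) of each gene list with 10 or more measured members, in hairpin replicate 1 (circles) and replicate 2 (squares), with the number of members in brackets and a line at 0. Complex IV and clustered H2A reach -0.74 and -0.64 in replicate 2, and the interferon and clock lists lie above 0 in both arrays.

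At the cell surface and in the matrix, ITGA2 and 2 laminin chains changed. ITGA2, the collagen-binding integrin alpha 2, measured 2828 and 3099 against 6397 and 8467, a change of 1.31 (SE 0.19, limma adjusted p = 0.00968), the 1 call among 11 alpha subunits. LAMB1 and LAMB2, the beta chains of basement membrane laminins, measured 1130 and 1402 against 647 and 741, and 239 and 283 against 126 and 133, with a change of -0.86 (SE 0.18) for LAMB1 and both hairpin arrays of LAMB2 under both controls. Of 20 matrix proteases and inhibitors MMP28 rose, from 9.55 and 9.51 to 16.8 and 15.1, a level in the lowest 25% of probe sets. Of 19 collagens and 7 integrin beta subunits 0 passed limma's threshold, with 1 lower in each list at p under 0.05 before adjustment. Of 14 targets of YAP and TEAD 0 passed, with 1 higher and 1 lower, and ANKRD1 measured 27948 and 29779 against 44514 and 50746. The calls of ITGA2 and LAMB2 held without hairpin replicate 1, and 0 of these 4 without replicate 2 or either control array.

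Among the enzymes of transcription and RNA silencing, POLR2E, a subunit shared by the nuclear RNA polymerases, fell from 12766 and 14207 to 8511 and 6239. The mediator subunits MED29 and MED11 fell with it, MED29 from 1021 and 999 to 556 and 542. Of 31 genes in that list these 3 fell and 0 rose, and the median change was -0.01. MED29 alone fell with the span trend removed, with quantile normalization or with arrays centred on their medians. KDM6B, a demethylase of histone H3 lysine 27, measured 220 and 157 against 376 and 559, a change of 1.30 (limma adjusted p = 0.0264), the 1 call of 16 in the list of Polycomb enzymes and H3K27 demethylases. AGO3, an Argonaute protein, measured 882 and 777 against 1411 and 1565, and was the 1 of 12 genes of RNA interference that rose. All 5 held without hairpin replicate 1 and were lost without replicate 2 or either control array. In the list for autophagy 1 of 25 rose, GABARAPL1, from 1501 and 1309 to 2412 and 2383, and among lysosomal enzymes and the proton pump 1 of 28 fell, HEXA, from 1045 and 1198 to 691 and 590. The call of HEXA held without hairpin replicate 1 and that of GABARAPL1 did not, and neither held without replicate 2 or either control array. Of 28 splicing factors and 20 genes of ribosome assembly 0 passed, with 3 and 1 higher and 1 and 2 lower before adjustment in limma's fit.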

How the data were processed

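The deposited intensities are linear, normalized values per probe set; per the submitters' processing notes the authors used Transcriptome Analysis Console. How background was corrected and arrays normalized, and the array's genome build, is not given in the sources used here. Log2 values were computed here without further normalization. Groups follow the sample titles. limma 3.58.1 in R 4.3.3 fitted a mean per group to all 6 arrays (lmFit, eBayes; 3 residual and 7.16 prior degrees of freedom), 2-sided, with Benjamini-Hochberg adjustment over 16965 probe sets and a threshold of 0.05. In 10 simulations limma's fit recovered 0.7% of changes with a log2 size of 0.5. At a size of 1 it recovered 35.8%, and at a size of 2 it recovered 98.4%, with 3.76% false. Most changes of 0.5 and many of 1 would thus be missed, so lists with 0 members past the threshold may hold such changes.

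Lists used 1 probe set per gene, the brightest. The members, 83 gene lists and 28 symbol families were chosen with earlier results of these data known. Named genes were S100A10 and ANXA2, the 25 rises and 25 falls with the largest smaller change of the hairpin arrays, every list member past the threshold, up to 3 with the smallest p where none passed, the 6 most and 6 least alike, and complex members as ranges. Others that appear were chosen after their values were seen. The 25 rises and 25 falls were drawn only from genes whose hairpin arrays both lay on 1 side of both controls. For them a lack of overlap between the groups was thus set by the choice. Promoters and names are from RefSeq, GRCh38.p14; motifs were searched in the 250 bases before the start. Same-numbered arrays of different groups deviated with correlations of -0.03, -0.02 and 0.19, so the numbers were not taken to pair them.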

Additional observations from a re-analysis of the deposited data

How the results depend on the processing

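The count of 539 probe sets past the threshold (242 higher, 297 lower) was 242 with array weights (111 and 131), 1454 with an intensity trend in eBayes (682 and 772), 952 with dim probe sets left out (412 and 540) and 878 with 32 added to each intensity before log2 (385 and 493). At a threshold of 0.1 it was 1344 (641 and 703) and at 0.01 it was 67 (41 and 26). Leaving out 1 array at a time gave 3 to 994 in all, 2 to 466 higher and 1 to 528 lower: 3 without hairpin replicate 2, 12 and 22 without a control array, and 994 without hairpin replicate 1. The causes of these moves were not tested, beyond fewer arrays in the last kind. Quantile normalization, centring, robust eBayes, the 4 arrays alone, 1 probe set per gene and removal of the span trend kept each count within 1.5 times the full one. Several list calls near the threshold were still lost: MCM6, H2AX and GABARAPL1 with centring and with quantile normalization, MMP28 and FBXO32 with quantile normalization and with the span trend removed, H2BC17 with quantile normalization, UBE2C and DSG2 with the span trend removed, and EIF2B2 and EIF3K with each of the 3 settings. No called gene reversed under any of these alternatives, which was fixed in advance where a hairpin array was left out. S100A10 stayed past 0.05 in each that kept 2 arrays a group, and its changes over all of them ran from -3.26 to -2.74. With the replicate block the count was 625 (295 and 330), 522 of them shared with the fit without it; the check of the numbers gave no pairing.

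The number of arrays, 2 a group, limits the precision of each change. Detection calls and scan batches were not used here, so neither the signal over background of dim genes nor a batch was checked.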

Other observations

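Some further families were picked after their values had been seen and are given as values, with no test of the family. Of 16 glutathione S-transferases, which attach glutathione to reactive compounds, 6 fell and 0 rose by limma's threshold, and the median change was -0.49 (-0.38 in replicate 1 and -0.57 in replicate 2). GSTM4 measured 2560 and 2870 in the control arrays and 1324 and 1046 in the hairpin arrays, and GSTP1 8142 and 9625 against 5277 and 3492. GSTK1, GSTZ1, GSTM1 and GSTM2 had changes of -1.04, -1.02, -0.94 and -0.89, and the GSTM genes are close copies that may share signal. Of 24 methyltransferase-like genes METTL17, METTL3 and METTL22 fell, with changes of -1.20, -0.95 and -0.85, and 0 rose. Changes were above 0 for 12 and below for 12, with a median of 0.01. Of 71 keratin-associated genes 3 fell, KRTAP2-1, KRTAP2-2 and KRTAP2-3, with changes of -1.25, -1.22 and -1.07. KRTAP5-3 rose with a change of 0.88. These 3 are near-identical neighbours, and KRTAP2-4 had a change of -0.62 that did not pass. Over the 71 genes 38 changes were above 0 and the median was 0.04.

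Of 9 ligands of the TNF family 3 rose and 8 had a change above 0. TNFSF10, the death ligand TRAIL, measured 340 and 364 against 742 and 851, TNFSF15 237 and 267 against 535 and 528, and TNFSF18 12.4 and 10.3 against 24.9 and 32.3. Both control values of TNFSF18 and its value in hairpin replicate 1 lay in the lowest 25% of probe sets. Of 12 genes of inflammatory caspases and CARD proteins 4 rose: CARD16, CARD6, CASP1 and IL18. CASP1 measured 90.5 and 107 against 210 and 199, and IL18, which caspase-1 processes, 623 and 422 against 965 and 1004. Of 9 cystatins, inhibitors of cysteine proteases, CST1, CST2 and CST4 rose. CST1 measured 8772 and 9413 against 21916 and 20732, and CST4 5135 and 5228 against 12043 and 11022; these genes are close copies. In each of the genes given by array here the hairpin arrays lay on 1 side of both controls.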
